A study of Homo sapiens with 18 samples.

Results

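Senescent IMR90 ER:RAS cells were exposed to IMP1088, an inhibitor of the N-myristoyltransferases NMT1 and NMT2, and their poly(A) RNA was compared with that of senescent cells given the vehicle DMSO. The comparison rests on 6 of the 18 libraries of the study, 3 with IMP1088 and 3 with DMSO, chosen by their labels alone. IMR90 cells are human lung fibroblasts. In the ER:RAS derivative, oncogenic RAS is fused to the hormone-binding part of the oestrogen receptor and becomes active when 4-hydroxytamoxifen (4OHT) is added. Senescent cells had received 100 nM 4OHT and were cultured for 7 days before 300 nM IMP1088 or DMSO was added for 3 days, with collection on day 10. Control cells carried the same fusion but had received DMSO in place of 4OHT, followed by 300 nM IMP1088 or DMSO for the same 3 days. The labels number the replicates of each group 1 to 3, and the study describes them as independent experiments, all in the same cells, so p-values measure the spread between these libraries. All libraries came from 1 engineered line.

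NMT enzymes join the fatty acid myristate to the N-terminal glycine of many proteins, which helps to anchor them in membranes. Among these proteins are the ARF GTPases, which recruit the COPI coat by which the Golgi returns cargo to the endoplasmic reticulum (ER). When unfolded proteins gather in the ER, the sensors PERK, IRE1 and ATF6 start the unfolded protein response: PERK slows translation and favours the factors ATF4 and CHOP, while XBP1 and ATF6 raise chaperone and degradation genes. Senescent cells have stopped dividing and secrete many cytokines, proteases and growth factors, the senescence-associated secretory phenotype (SASP).

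The 6 libraries held between 17758122 and 20418084 counts. Values below are CPM, counts per 1000000 counts, after TMM scaling, given in the order of replicates 1, 2 and 3, and a count of 3 in a library, the floor used here, came to between 0.158 and 0.187 CPM. Log2 fold changes are given ± SE with p-values of the quasi-likelihood test of edgeR, Benjamini-Hochberg adjusted over 14341 genes, and a gene is said to have risen or fallen where that p was under 0.05. Among the 6, libraries of the same group had a correlation of log2 CPM between 0.992 and 0.993. Fibroblast markers summed to between 16646 and 17064 CPM with DMSO and to between 11885 and 12159 CPM with IMP1088, with 3 of 10 higher and 6 lower. The epithelial markers KRT5, SFTPB, SFTPC and SCGB1A1 and the lymphocyte marker CD3E were at 0 in all 6 libraries. The 10 epithelial markers summed to between 34.7 and 39.2 CPM with DMSO and between 41.8 and 43.4 CPM with IMP1088, chiefly KRT18, and 1 rose, KRT19 (0.99, adjusted p = 0.046). The 10 immune markers summed to between 136 and 168 CPM with DMSO and between 159 and 173 CPM with IMP1088, chiefly CD68, and 1 fell, CD4 (-1.25, adjusted p = 4.2e-06). Their part in the results was not tested. Of the 8 endothelial markers 4 fell, and of the 7 smooth muscle and pericyte markers 4 fell and 1 rose. In bulk RNA, fewer cells of a kind and less RNA per cell cannot be told apart. HRAS, whose row may collect reads of the fusion as well as of the endogenous gene, had 5516, 5312 and 6062 CPM with DMSO and 5063, 4906 and 5172 CPM with IMP1088 (-0.16 ± 0.09, adjusted p = 0.17). ESR1 had 3181, 2949 and 3332 CPM with DMSO and 2759, 2658 and 2929.8 CPM with IMP1088 (-0.18 ± 0.13, adjusted p = 0.27). Neither passed the threshold.

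The drug's targets did not pass either. NMT1 had 159, 164 and 163 CPM with DMSO and 181, 188 and 177 CPM with IMP1088, a log2 fold change of 0.17 ± 0.08 (adjusted p = 0.11), and NMT2 had 16.3, 18.1 and 16.4 CPM with DMSO and 13.8, 14.8 and 14.8 CPM with IMP1088, a log2 fold change of -0.23 ± 0.14 (adjusted p = 0.21). When the 6 libraries were fitted alone, NMT1 passed with 0.20 (adjusted p = 0.0068).

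Of the 14341 genes tested, 2951 rose (20.6%) and 3423 fell (23.9%) with IMP1088. More than 2-fold rises numbered 741 and more than 2-fold falls 865, and more than 4-fold 186 and 151. The median log2 fold change over all genes was -0.043, and the 5th and 95th percentiles were -1.22 and 1.13.

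Among genes that reached 5 CPM in 1 of the groups and did not overlap between them, the largest rises were in genes nearly silent in DMSO libraries. APOA4, which encodes a lipid-binding apolipoprotein, had 0 counts in every DMSO library and 9.47, 8.94 and 9.98 CPM with IMP1088, at least 53.1-fold higher against the floor of 3 counts per library. An unnamed gene on the opposite strand shares 43.2% of its exonic bases. INHBE, a subunit of activin E, had 0.0617, 0.809 and 0.44 CPM with DMSO and 30.7, 36.8 and 40.1 CPM with IMP1088 (6.34 ± 0.46, adjusted p = 2.5e-09). LDHD, the mitochondrial D-lactate dehydrogenase, had 4 counts over the DMSO libraries and 304 over the IMP1088 libraries, a ratio of 70.1 with a 95% counting interval from 27.1 to 259. ARC, an immediate early gene best known from neurons, had 0.123, 0 and 0.385 CPM with DMSO and 6.31, 6.26 and 10.2 CPM with IMP1088 (5.36 ± 0.65, adjusted p = 1.5e-06), with every IMP1088 library well above all 3 DMSO libraries. IL23A, the p19 subunit of the cytokine IL-23, had 0.247, 0.374 and 0.33 CPM with DMSO and 9.16, 16.3 and 12 CPM with IMP1088 (5.27 ± 0.39, adjusted p = 2.5e-09). EAF2, a factor of transcription elongation, had 0.617, 0.56 and 0.44 CPM with DMSO and 13.4, 14.3 and 12.4 CPM with IMP1088 (4.63 ± 0.26, adjusted p = 8e-11). MANEAL, an endomannosidase-like Golgi protein, rose by 4.81 ± 0.27 to 9.65 ± 1.35 CPM (SD, n = 3), and NPTX2, a secreted pentraxin, by 4.06 ± 0.32 to 6.02 ± 0.626 CPM. CHRNE (4.70) and C17orf107 (4.03) lie across each other on opposite strands, sharing 59.6% and 50.2% of their exonic bases, and their counts cannot be taken as separate.

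The largest falls began from higher levels. CXCL10, a chemokine that attracts T cells, had 24.8, 33.8 and 30.3 CPM with DMSO and 0.368, 0.95 and 1.29 CPM with IMP1088, a fall of 5.09 ± 0.30 (adjusted p = 2.1e-10). INMT, an indolethylamine methyltransferase, had 21.6, 22.7 and 21.6 CPM with DMSO and 1.1, 1.62 and 1.12 CPM with IMP1088 (-4.10 ± 0.19, adjusted p = 6.7e-12), and a readthrough gene on the same strand shares 16.6% of its exonic bases. ACTG2, a smooth muscle actin, had 42, 37.8 and 47.8 CPM with DMSO and 3.31, 2.24 and 3.87 CPM with IMP1088 (-3.76 ± 0.17, adjusted p = 6.7e-12). MXRA5, a matrix remodelling protein, had 60.4, 70.3 and 49.6 CPM with DMSO and 4.89, 6.76 and 7.12 CPM with IMP1088, and PTX3, a pentraxin of innate immunity, had 367, 374 and 410.2 CPM with DMSO and 34, 39.3 and 46.8 CPM with IMP1088. Both fell by more than 3 on the log2 scale (-3.26 ± 0.33 and -3.26 ± 0.27). CYP26B1, which breaks down retinoic acid, had 26.4, 29.9 and 27.7 CPM with DMSO and 3.58, 2.96 and 2.58 CPM with IMP1088 (-3.20 ± 0.18, adjusted p = 1.2e-10). GABRB1 (-3.56), PDZD2 (-3.35), the integrin subunit ITGA8 (-3.36) and the docking protein NEDD9 (-3.62) completed the 10, and in each of these the IMP1088 libraries were under 1 CPM.

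**Figure D1:**
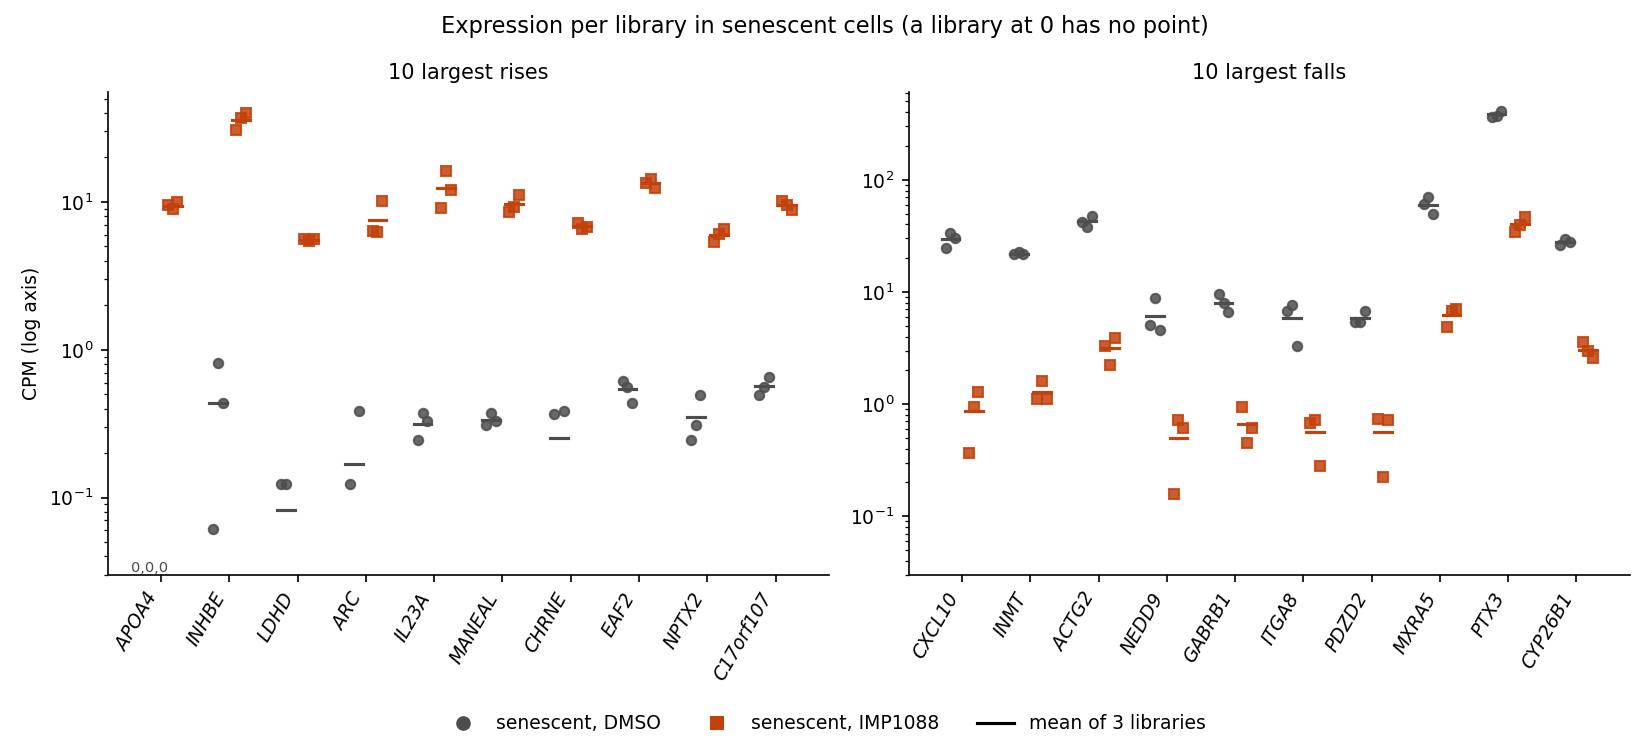
CPM on a log axis in each senescent library for the 10 largest rises (left) and the 10 largest falls (right), with circles for DMSO, squares for IMP1088 and a bar at the mean of 3 libraries. The squares lie above every circle on the left and below every circle on the right, as the choice of these genes required, and APOA4 has no circle because its DMSO libraries are at 0.

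By the change in CPM, which is a share of all counts and not a level per length, the largest gains were in FTL, HSPA5, SQSTM1, P4HB and FTH1. FTL, the light chain of the iron store ferritin, had 3921, 3202 and 3797 CPM with DMSO and 8569.8, 8183 and 7947 CPM with IMP1088, and FTH1, the heavy chain, had 2626, 2476 and 2865 CPM with DMSO and 4853, 4997 and 4634 CPM with IMP1088. On the log2 scale FTL rose by 1.18 ± 0.11 (adjusted p = 7.9e-08) and FTH1 by 0.86 ± 0.12 (adjusted p = 1.1e-05). Among the largest losses were IGFBP5, ACTB, CCND1 and ACTG1. ACTB, the cytoplasmic beta-actin, had 5121, 5134 and 5337 CPM with DMSO and 1885, 1925 and 1831 CPM with IMP1088, a log2 fold change of -1.47 ± 0.09 (adjusted p = 5.5e-10), and ACTG1, gamma-actin, had 5503, 5226 and 5892 CPM with DMSO and 2894, 2877 and 2821 CPM with IMP1088 (-0.95 ± 0.09). Both ferritin chains and both actins have many near-identical pseudogenes, so their counts depend on how the authors assigned reads, and 63.2% of the exonic bases of FTH1 overlap BEST1 on the opposite strand.

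Genes that fold proteins in the ER lumen rose as a group. Of 24 tested chaperones and folding enzymes 21 rose and 0 fell, with a median log2 fold change of 0.66 against -0.043 over all genes. HSPA5, the ER chaperone BiP, had 1256, 1165 and 1091 CPM with DMSO and 4822, 4577 and 4544 CPM with IMP1088 (1.99 ± 0.15, adjusted p = 3.6e-09). Each IMP1088 library was over 3 times the highest DMSO library. P4HB, the protein disulphide isomerase, had 1535, 1548 and 1664 CPM with DMSO and 3959, 3956 and 4022 CPM with IMP1088 (1.33 ± 0.10, adjusted p = 5.2e-09). DNAJB9, a co-chaperone of BiP, had 43.2, 43.3 and 36.8 CPM with DMSO and 149, 149 and 155 CPM with IMP1088 (1.88 ± 0.16, adjusted p = 1.3e-08). SERP1 rose by 1.24, SDF2L1 by 1.14, DNAJC3, which restrains PERK, by 1.10, and HSP90B1, the ER form of HSP90, by 1.06. Calreticulin (CALR, 0.61) and calnexin (CANX, 0.38), the lectins that hold glycoproteins during folding, rose less. The nucleotide exchange factor SIL1 (0.10) and the isomerases TXNDC5 (0.15) and PDIA6 (0.23) did not pass.

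Promoters of this list and of the PERK list are shown because members of both rose, and because the response elements of the unfolded protein response are usually sought there. Windows ran from 250 bases before to 50 bases after a RefSeq transcription start (GRCh38.p14). Capitals mark matches, on either strand, to 5 motifs: ERSE (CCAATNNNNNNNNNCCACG), ERSE-II (ATTGGNCCACG), UPRE (TGACGTGG), the CEBP-ATF element CARE (TGATGNAA) and GASE (ACGTGGC), where UPRE and GASE share the letters ACGTGG. Genes were the 3 most strongly risen members of the chaperone list and of the PERK list whose window held a motif. Members that rose more than the last one shown were passed over where no window with a motif was found. These were DNAJB9 (1.88) and P4HB (1.33) of the chaperones, and INHBE (6.34) and DDIT3 (1.75) of the PERK list. NUPR1 (1.40), ATF4 (1.35), DDIT4 (0.91) and KLHL24 (0.81) of the PERK list were passed over too.
HSPA5 (chr9:125241294-125241593, minus strand; an ERSE from base -66 to -48): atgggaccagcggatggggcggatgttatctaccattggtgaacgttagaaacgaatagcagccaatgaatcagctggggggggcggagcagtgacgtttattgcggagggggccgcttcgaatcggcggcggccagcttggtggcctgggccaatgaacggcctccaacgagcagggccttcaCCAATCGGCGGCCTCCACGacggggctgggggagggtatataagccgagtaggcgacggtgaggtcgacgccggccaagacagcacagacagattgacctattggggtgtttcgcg
SERP1 (chr3:150546447-150546746, minus strand; an ERSE on the other strand): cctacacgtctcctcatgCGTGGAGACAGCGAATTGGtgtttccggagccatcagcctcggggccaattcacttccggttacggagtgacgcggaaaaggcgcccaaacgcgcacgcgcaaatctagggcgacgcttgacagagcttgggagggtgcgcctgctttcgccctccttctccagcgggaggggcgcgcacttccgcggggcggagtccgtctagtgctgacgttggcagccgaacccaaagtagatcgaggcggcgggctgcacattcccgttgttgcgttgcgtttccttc
SDF2L1 (chr22:21642052-21642351, plus strand; an ERSE-II on the other strand): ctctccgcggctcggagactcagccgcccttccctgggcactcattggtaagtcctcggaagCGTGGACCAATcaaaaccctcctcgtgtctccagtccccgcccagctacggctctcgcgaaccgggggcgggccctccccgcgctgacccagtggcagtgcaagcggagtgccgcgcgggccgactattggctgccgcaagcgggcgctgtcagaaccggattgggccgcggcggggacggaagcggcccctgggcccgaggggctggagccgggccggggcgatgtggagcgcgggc
EIF2AK3 (chr2:88627415-88627714, minus strand; a GASE after the start): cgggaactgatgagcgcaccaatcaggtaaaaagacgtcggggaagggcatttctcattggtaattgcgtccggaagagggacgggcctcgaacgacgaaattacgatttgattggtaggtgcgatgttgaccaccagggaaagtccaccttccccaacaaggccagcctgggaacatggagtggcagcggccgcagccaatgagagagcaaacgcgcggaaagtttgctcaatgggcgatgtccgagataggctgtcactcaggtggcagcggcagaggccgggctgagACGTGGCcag
ATF3 (chr1:212565157-212565456, plus strand; a CARE from base -191 to -184): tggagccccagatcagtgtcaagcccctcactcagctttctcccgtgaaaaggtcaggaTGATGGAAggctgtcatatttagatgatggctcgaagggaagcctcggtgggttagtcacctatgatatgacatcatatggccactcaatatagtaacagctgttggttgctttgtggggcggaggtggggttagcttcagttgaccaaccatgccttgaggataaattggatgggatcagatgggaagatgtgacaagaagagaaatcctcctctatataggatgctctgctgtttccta
XBP1 (chr22:28800520-28800819, minus strand; an ERSE from base -52 to -34): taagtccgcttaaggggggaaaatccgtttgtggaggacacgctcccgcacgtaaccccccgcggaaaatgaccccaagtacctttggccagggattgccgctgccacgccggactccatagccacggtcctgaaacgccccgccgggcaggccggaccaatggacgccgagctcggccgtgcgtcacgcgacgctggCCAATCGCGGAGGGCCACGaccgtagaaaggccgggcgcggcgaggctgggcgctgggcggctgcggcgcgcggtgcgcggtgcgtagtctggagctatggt

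Over the 16242 windows of the 11104 tested genes that the table covers, some genes having several starts, ERSE was in 18 (0.111%). Of these, 10 were among the 28 windows of the chaperone list (35.7%), from 8 of its 22 genes with a window. ERSE-II was in 13 windows (0.0800%), 2 of them in the chaperone list. UPRE was in 0.843% of all windows, 2.00% of those of genes that rose and 0.344% of those of genes that fell. In the list of the COPI coat, 6 of 21 windows held it, from 5 genes. GASE was in 4.02% of all windows, 7.83% of those of genes that rose and 2.73% of those of genes that fell. CARE was about as frequent in the windows of genes that rose (2.06%) and fell (2.20%) as in all (2.11%), and was in 5 of the 21 windows of the amino acid list. A match says that these letters are there, and binding was not measured.

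Degradation of misfolded ER proteins and entry into the ER moved the same way. Of 27 tested genes of ER-associated degradation 15 rose and 2 fell (median 0.37), and of 29 genes of ER entry and glycosylation 17 rose and 1 fell (median 0.40). HERPUD1, which gathers the degradation complex at the ER membrane, had 73.3, 80.2 and 73.2 CPM with DMSO and 426, 390.1 and 369 CPM with IMP1088 (2.39 ± 0.14, adjusted p = 2.1e-10). DERL1, a channel protein of that complex, had 86.9, 84.8 and 88.8 CPM with DMSO and 202, 196 and 207 CPM with IMP1088 (1.22 ± 0.11), and SYVN1, its ubiquitin ligase HRD1, had 51.8, 54.9 and 52.1 CPM with DMSO and 113, 120.4 and 110.4 CPM with IMP1088 (1.11 ± 0.17). In none of these did the groups overlap. ERLIN2, which helps to degrade inositol trisphosphate receptors, went the other way, from 78, 85 and 72.3 to 53.9, 50.8 and 53 CPM (-0.58 ± 0.09, adjusted p = 3.5e-05). For entry, SRP54, the subunit of the signal recognition particle that binds signal peptides, had 163, 152 and 146 CPM with DMSO and 348, 342 and 348 CPM with IMP1088 (1.17 ± 0.10). SEC11C, a signal peptidase subunit, had 12.3, 16.1 and 17 CPM with DMSO and 32.9, 43.2 and 36.8 CPM with IMP1088 (1.31 ± 0.23). SRPRB, a subunit of the particle's receptor, had 87.6, 90.8 and 93.8 CPM with DMSO and 189.6, 179 and 186 CPM with IMP1088 (1.03 ± 0.12), with 21.3% of its exonic bases under other genes. SRP68 fell by 0.22 ± 0.08 (adjusted p = 0.034), and its call was lost without senescent DMSO replicate 1 (0.087) or 3 (0.097) and without IMP1088 replicate 1 (0.084) or 3 (0.12), the values being adjusted p.

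The PERK, ATF4 and CHOP list moved less evenly. Of 24 tested members 16 rose and 3 fell (median 0.55). The list also holds XBP1, ERN1 and ATF6, of the IRE1 and ATF6 branches, and XBP1 and ATF6 (0.62) are among those that rose. EIF2AK3, the gene of the sensor PERK itself, had 27.3, 25.8 and 27 CPM with DMSO and 87.6, 84.3 and 93.4 CPM with IMP1088 (1.73 ± 0.15, adjusted p = 3.2e-08). ATF4 had 146, 208 and 179 CPM with DMSO and 463, 468 and 431 CPM with IMP1088 (1.35 ± 0.14, adjusted p = 1.7e-07), and DDIT3, which encodes CHOP, had 20.7, 25.8 and 22.7 CPM with DMSO and 94.1, 67.3 and 72.2 CPM with IMP1088 (1.75 ± 0.20, adjusted p = 8.1e-07). Neighbours, mainly MARS1 on the opposite strand, overlap 39.6% of the exonic bases of DDIT3. The stress protein NUPR1 rose by 1.40, DDIT4, an inhibitor of mTORC1, by 0.91, and ATF3 by 0.88. XBP1 had 87.5, 91.5 and 92.4 CPM with DMSO and 156, 157 and 154 CPM with IMP1088 (0.78 ± 0.12, adjusted p = 3.1e-05). The counts do not separate its spliced and unspliced forms. GDF15 (0.40) and TRIB3 (0.56) rose by less. STC2, stanniocalcin 2, fell from 310.3, 374 and 285 to 161, 185 and 146 CPM (-0.98 ± 0.13, adjusted p = 4.5e-06), and JDP2 (-0.56) and the death receptor TNFRSF10B (-0.50) fell with it. CHAC1, which degrades glutathione, had 87.3, 97.9 and 83.2 CPM with DMSO and 66.9, 58.4 and 57.7 CPM with IMP1088 (-0.55 ± 0.27, adjusted p = 0.11), and ERN1, the gene of IRE1, a value of -0.01 ± 0.15 (adjusted p = 0.96).

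Enzymes and carriers of amino acids, many of them targets of ATF4, followed in part. Of 20 tested 11 rose and 1 fell (median 0.48). CTH, which makes cysteine from cystathionine, had 12.9, 12 and 12 CPM with DMSO and 34.2, 35.9 and 35.7 CPM with IMP1088 (1.52 ± 0.20, adjusted p = 5.3e-06). The neutral amino acid carrier SLC1A4 had 12.4, 14.4 and 10.7 CPM with DMSO and 30.2, 30.7 and 26.4 CPM with IMP1088 (1.22 ± 0.21), and ALDH1L2, a mitochondrial folate enzyme, had 28, 34.9 and 28.9 CPM with DMSO and 67.4, 68.3 and 70.2 CPM with IMP1088 (1.17 ± 0.24). Asparagine synthetase ASNS (0.25) and PSAT1 (0.03) of serine synthesis did not pass. PSPH, the last enzyme of serine synthesis, had 15.7, 18.5 and 17.3 CPM with DMSO and 14, 13.2 and 12.3 CPM with IMP1088 (adjusted p = 0.045). Leaving out any 1 of the 6 libraries except DMSO replicate 1 ended this call, with an adjusted p of up to 0.14. Among 20 cytosolic aminoacyl-tRNA synthetases 7 rose and 2 fell, with a median of 0.13. RARS1 had 166, 159 and 159 CPM with DMSO and 260.1, 239 and 247 CPM with IMP1088 (0.63 ± 0.11), EPRS1 rose by 0.51 ± 0.10 and FARSA by 0.45 ± 0.12, while CARS1 fell by 0.32 ± 0.10 (adjusted p = 0.01).

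Transport between ER and Golgi was described by 4 lists. Of 21 genes of the COPI coat and its ARF machinery 9 rose and 2 fell (median 0.27), and of 19 genes of the COPII coat, which carries cargo out of the ER, 13 rose and 0 fell (median 0.49). ARF4 stood apart in its list, with 402, 409.6 and 367 CPM with DMSO and 2121, 1980.5 and 2176 CPM with IMP1088 (2.41 ± 0.13, adjusted p = 8e-11). An antisense gene overlaps 18.5% of its exonic bases. The next member, ARFGAP1, which stimulates GTP hydrolysis on ARF1, had 171, 152 and 178 CPM with DMSO and 282, 272 and 260.3 CPM with IMP1088 (0.70 ± 0.10). ARF1, the main COPI recruiter, had 739, 698 and 781 CPM with DMSO and 779, 783 and 773 CPM with IMP1088 (0.07 ± 0.09, adjusted p = 0.51), with overlapping groups. ARF3 (-0.02) and ARF5 (-0.29) did not pass and ARF6 fell by 0.26. COPG2, a coat subunit with 27.5% of its exonic bases under other genes, chiefly MEST, fell by 0.44 ± 0.11, and the other gamma subunit COPG1 rose by 0.27. In the COPII list MIA2, an ER exit site protein, had 20.9 ± 2.91 CPM with DMSO and 48.7 ± 3.07 CPM with IMP1088 (SD, n = 3), a change of 1.22 ± 0.14 (adjusted p = 7.2e-07), SEC24A, a cargo-binding coat subunit, rose by 0.84 ± 0.15 and SAR1B, the GTPase that starts the coat, by 0.77 ± 0.09.

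Of 12 cargo receptors, the 3 KDEL receptors that return escaped ER proteins and 9 p24 (TMED) proteins, 9 rose and 1 fell (median 0.37). KDELR3 had 209, 198 and 207 CPM with DMSO and 439, 429.9 and 444 CPM with IMP1088 (1.10 ± 0.12, adjusted p = 3e-07) and KDELR2 had 389.6, 364 and 357 CPM with DMSO and 607, 569.9 and 602 CPM with IMP1088 (0.68 ± 0.09). TMED7, a p24 protein, rose by 0.67 ± 0.12, though 19.98% of its exonic bases belong also to a readthrough gene. TMED8 fell by 0.46 ± 0.16 (adjusted p = 0.021), a call lost without senescent DMSO replicate 1 (adjusted p = 0.11) or IMP1088 replicate 2 (adjusted p = 0.078). Among 21 golgins and Golgi structure genes, a list that also holds the transcription factors CREB3 and TFE3, 14 rose and 2 fell (median 0.46). BLZF1, golgin-45, had 54.6, 60.1 and 48.8 CPM with DMSO and 147, 152 and 149 CPM with IMP1088 (1.46 ± 0.13, adjusted p = 2e-08). CREB3, a membrane-bound factor that is cleaved in the Golgi, had 93.1, 89 and 105 CPM with DMSO and 232, 245 and 241 CPM with IMP1088 (1.32 ± 0.12, adjusted p = 2.9e-08). GOLGA1, golgin-97, rose by 0.92 ± 0.12, and TGOLN2, the cycling protein TGN46, fell by 0.41 ± 0.10 (adjusted p = 0.0025).

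**Figure D2:**
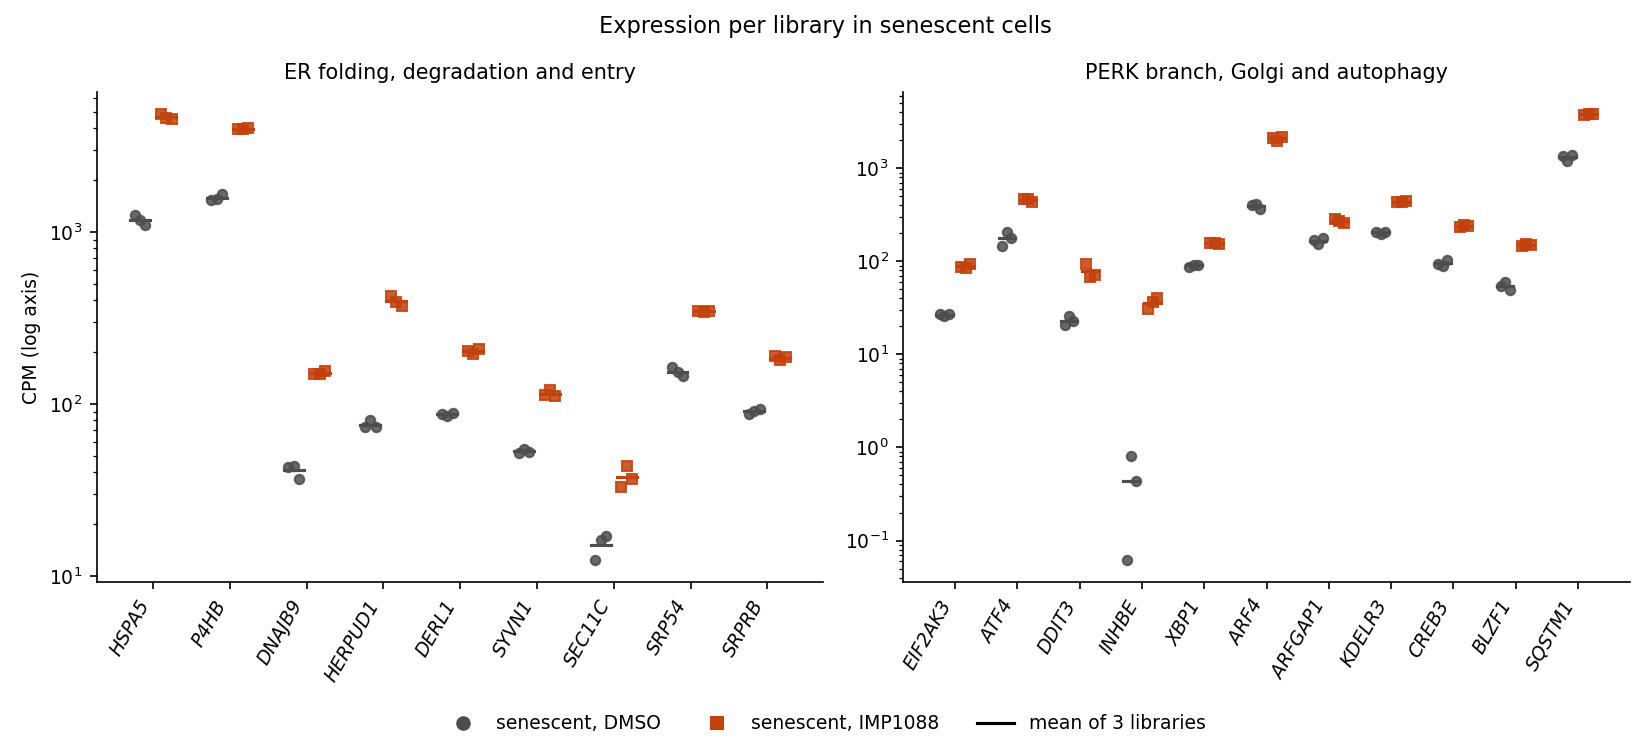
CPM on a log axis in each senescent library for genes of ER folding, degradation and entry (left) and of the PERK branch, Golgi and autophagy (right), with circles for DMSO, squares for IMP1088 and a bar at the mean of 3 libraries. In every gene shown the 3 IMP1088 libraries lie above the 3 DMSO libraries, with the widest gap in INHBE. XBP1, in the right panel, belongs to the IRE1 branch.

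Transcripts of proteins known to be N-myristoylated, the enzymes' own substrates, were listed together with NMT1 and NMT2, neither of which passed. Of the 38 genes tested 17 fell and 6 rose (median -0.23). The ARF genes, whose proteins are N-myristoylated too, were counted in the COPI list and not in this one. AKAP12, a scaffold of protein kinase A, had 686, 759.6 and 740.1 CPM with DMSO and 315, 357 and 358 CPM with IMP1088 (-1.08 ± 0.13, adjusted p = 2e-06). MARCKSL1, which binds actin and membranes, had 239.8, 237 and 267 CPM with DMSO and 119, 119 and 128 CPM with IMP1088 (-1.02 ± 0.11), and HPCAL1, a neuronal calcium sensor protein, had 411, 358 and 429 CPM with DMSO and 208, 194 and 196 CPM with IMP1088 (-1.004 ± 0.09). The kinases ABL1 (-0.70), LYN (-0.48) and SRC (-0.37) fell as well. ARL1, a GTPase of the trans-Golgi, rose from 141, 145 and 137 to 268, 268 and 267 CPM (0.92 ± 0.10, adjusted p = 2e-07). So did the mitochondrial proteins CHCHD3 (0.75), TOMM40 (0.72) and SAMM50 (0.55). NDUFAF4, an assembly factor of respiratory complex I, had 20.7, 21.1 and 17.9 CPM with DMSO and 19.7, 18.4 and 19.8 CPM with IMP1088 (-0.04 ± 0.15, adjusted p = 0.85).

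Autophagy and lysosome genes rose in part. Of 29 autophagy genes 12 rose and 1 fell (median 0.20). SQSTM1, the receptor p62 that delivers ubiquitinated cargo, had 1341, 1194 and 1394 CPM with DMSO and 3768, 3786 and 3803 CPM with IMP1088 (1.53 ± 0.09, adjusted p = 2.9e-10). Neighbours, chiefly MRNIP, cover 22.4% of its exons. MAP1LC3B, which coats autophagosomes, rose by 0.65. CALCOCO1, a receptor for ER fragments, rose by 0.74 ± 0.13 and ATG13, of the initiating kinase complex, by 0.66 ± 0.07. The kinase ULK2 fell by 0.48 ± 0.14 (adjusted p = 0.0068). Of 48 lysosomal genes 25 rose and 5 fell (median 0.26). ASAH1, acid ceramidase, had 136, 129 and 114 CPM with DMSO and 277, 269.7 and 263 CPM with IMP1088 (1.10 ± 0.12), NEU1, a sialidase, had 127, 116 and 130.1 CPM with DMSO and 263, 265 and 268 CPM with IMP1088 (1.09 ± 0.09) and CTSF, cathepsin F, had 18.6, 19 and 19 CPM with DMSO and 42.5, 38.3 and 37.4 CPM with IMP1088 (1.06 ± 0.13). The protease CTSO fell by 0.53 ± 0.13 (adjusted p = 0.0018).

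Cytokines of the SASP did not move as 1 group. Of 22 interleukins, colony stimulating factors and receptors 3 rose and 8 fell (median -0.14), which is 13.6% and 36.4% beside 20.6% and 23.9% of all genes. IL23A, described among the largest rises, is not on this list and not in its count. IL6 had 144, 191 and 171 CPM with DMSO and 182, 233 and 198 CPM with IMP1088 (0.28 ± 0.26, adjusted p = 0.42), and IL1A had 196, 232 and 197 CPM with DMSO and 204, 227 and 196 CPM with IMP1088 (0.00 ± 0.16, adjusted p = 0.99). Neither passed, and the groups overlapped in both. IL1B had 6831, 6299.5 and 6786 CPM with DMSO and 5906, 5096 and 4945 CPM with IMP1088 (-0.32 ± 0.12, adjusted p = 0.041). Leaving out any 1 of the 6 libraries except IMP1088 replicate 1 ended this call, with an adjusted p of up to 0.15 without IMP1088 replicate 3. CSF3, which drives neutrophil production, rose from 248, 258 and 299 to 633, 634 and 658 CPM (1.26 ± 0.10, adjusted p = 1.3e-08), and CSF2, GM-CSF, fell from 284, 242 and 259 to 168, 159 and 154 CPM (-0.71 ± 0.13, adjusted p = 0.0002). IL1RN, the antagonist of the interleukin 1 receptor, rose by 1.04 ± 0.27 to 5.08 ± 0.388 CPM. Chemokines went both ways, with 4 of 16 higher and 6 lower (median -0.076). CXCL8, interleukin 8, had 7301, 7436 and 6238 CPM with DMSO and 9179, 8729.7 and 9308 CPM with IMP1088 (0.38 ± 0.28, adjusted p = 0.29) and did not pass, although its groups did not overlap. CCL20, which attracts cells with the receptor CCR6, had 35.3, 43.6 and 44.8 CPM with DMSO and 168, 210.3 and 218 CPM with IMP1088 (2.27 ± 0.19, adjusted p = 1.7e-08), and CXCL16 (2.20) and CXCL2 (1.77) rose too. CCL2, a monocyte attractant, had 24, 50.2 and 51.5 CPM with DMSO and 5, 11.4 and 9.02 CPM with IMP1088 (-2.31 ± 0.41, adjusted p = 0.00013). Beside CXCL10, CXCL11 (-3.90), CCL7 (-2.75) and CXCL6 (-1.27) fell. When the 6 libraries were fitted alone, IL6 (0.31, adjusted p = 0.0073) and CXCL8 (0.41, adjusted p = 6.9e-05) passed as higher.

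Growth factors fell in a larger share than secreted proteases and their inhibitors. Of 28 matrix proteases and inhibitors 10 fell and 4 rose (median -0.15), and of 29 growth factors and IGF binding proteins 19 fell and 2 rose (median -0.62). PLAT, tissue plasminogen activator, had 3469.6, 3423 and 2969.8 CPM with DMSO and 609, 803 and 566 CPM with IMP1088 (-2.32 ± 0.14, adjusted p = 1.6e-10). SERPINB2, one of its inhibitors, had 2204, 1638 and 1652 CPM with DMSO and 762, 532 and 587 CPM with IMP1088 (-1.55 ± 0.15). TIMP3, which blocks metalloproteinases, had 222, 215 and 225 CPM with DMSO and 59.6, 49.6 and 63.8 CPM with IMP1088 (-1.94 ± 0.13). The collagenase MMP1 (0.06) and MMP3 (0.36) did not pass, and MMP19 rose from 9.07, 8.65 and 8.13 to 18.4, 21.5 and 20.1 CPM (1.21 ± 0.12), with 17.6% of its exonic bases overlapping a gene on the opposite strand. BMP4, a morphogen of the TGF-beta family, had 14, 11.6 and 13.6 CPM with DMSO and 1.74, 2.18 and 1.06 CPM with IMP1088 (-2.97 ± 0.18), IGFBP3 had 96.1, 123 and 102 CPM with DMSO and 24.7, 27.1 and 23.7 CPM with IMP1088 (-2.09 ± 0.13) and the neurotrophin BDNF had 25.7, 23.4 and 20.4 CPM with DMSO and 5.58, 6.48 and 6.56 CPM with IMP1088 (-1.90 ± 0.15). IGFBP5 fell from 8454, 8364 and 8144 to 3404, 4423 and 4162 CPM (-1.06 ± 0.15). HGF (-1.46), VEGFA (-0.62) and AREG (-0.88) also fell. IGFBP6 rose by 0.38 ± 0.14 (adjusted p = 0.026), a call lost without senescent DMSO replicate 1 (adjusted p = 0.096) or 2 (0.061) or IMP1088 replicate 1 (0.084).

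NF-kappaB, the main driver of SASP transcription, and interferon signalling were each described by a list. Of 20 NF-kappaB subunits and feedback inhibitors 4 rose and 3 fell (median 0.014). The share that rose was near that of all genes, 20.6%, and the share that fell was below that of all genes, 23.9%. The subunits RELA (0.20) and NFKB1 (-0.07) and the inhibitors NFKBIA (0.37) and TNFAIP3 (-0.18) did not pass. CYLD, a deubiquitinase that restrains the pathway, had 44.6, 44 and 40.7 CPM with DMSO and 72.7, 68.1 and 79.1 CPM with IMP1088 (0.77 ± 0.09), NFKBIB rose by 0.58 ± 0.15, and BIRC3, a ubiquitin ligase induced by it, had 34.7, 48.7 and 32.4 CPM with DMSO and 14.9, 21.8 and 23.2 CPM with IMP1088 (-0.95 ± 0.20, adjusted p = 0.00053). Of 33 interferon-stimulated genes 9 rose and 8 fell (median 0.12), which is 27.3% and 24.2%, not far from the shares of all genes. IRF7, a factor of the interferon response, had 4.75, 5.48 and 4.4 CPM with DMSO and 14.8, 15.8 and 13.7 CPM with IMP1088 (1.60 ± 0.17) and the RNA sensor IFIH1 had 3.83, 2.49 and 2.64 CPM with DMSO and 7.16, 5.98 and 5.94 CPM with IMP1088 (1.09 ± 0.19), while SAMD9L had 12.9, 14.6 and 10.9 CPM with DMSO and 5.58, 6.71 and 5.66 CPM with IMP1088 (-1.10 ± 0.24). ISG15 (-0.11) and MX1 (0.42) did not pass, and GBP1 (-2.38) and GBP2 (-1.40) fell.

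Genes of the extracellular matrix fell. Of 31 collagens and collagen enzymes 21 fell and 1 rose (median -0.61). COL3A1 had 291, 346 and 250.5 CPM with DMSO and 63.2, 84.2 and 64.1 CPM with IMP1088 (-2.07 ± 0.16, adjusted p = 6.5e-09). COL1A1 and COL1A2, whose chains combine in collagen I, went opposite ways: COL1A1 had 3338, 3390.3 and 2895 CPM with DMSO and 750.5, 899 and 845 CPM with IMP1088 (-1.95 ± 0.18, adjusted p = 5.9e-08), and COL1A2 had 681, 796 and 647 CPM with DMSO and 1264, 1454 and 1436 CPM with IMP1088 (0.97 ± 0.14, adjusted p = 1.3e-05). COL12A1 had 303, 371 and 227 CPM with DMSO and 80.3, 110.3 and 86.9 CPM with IMP1088 (-1.70 ± 0.26). Basement membrane collagens COL4A1 (-1.27) and COL4A2 (-0.93) and the fibrillar COL5A1 (-1.09) fell, and the collagen chaperone SERPINH1 (0.15) and the cross-linking enzyme LOX (0.16) did not pass. Of 27 genes of elastic fibres, fibronectin and TGF-beta response 15 fell and 1 rose (median -0.78). TAGLN, an actin-binding protein of contractile cells, had 73.4, 79.6 and 81.5 CPM with DMSO and 16.6, 16.8 and 14 CPM with IMP1088 (-2.30 ± 0.17), and 47.8% of its exonic bases lie under other genes on either strand. THBS1, thrombospondin 1, had 1117, 1669 and 1107 CPM with DMSO and 204, 376 and 224 CPM with IMP1088 (-2.28 ± 0.21), and TNC, tenascin C, had 1139, 1317 and 1102 CPM with DMSO and 259.8, 339 and 298 CPM with IMP1088 (-1.99 ± 0.26). CCN2 (-1.23), CCN1 (-1.11) and ACTA2 (-1.59) fell. Fibronectin FN1 (-0.53 ± 0.25, adjusted p = 0.1) did not pass, and EFEMP1 rose by 1.10. All 8 caveola genes tested fell (median -0.74), the 6 tested caveolins and cavins, which coat caveolae, and the coat partners EHD2 and PACSIN2. CAV1 had 117, 112 and 104 CPM with DMSO and 31.3, 31.4 and 31.4 CPM with IMP1088 (-1.82 ± 0.12, adjusted p = 4.9e-10), CAV2 had 123, 123 and 113 CPM with DMSO and 41, 43.9 and 42.8 CPM with IMP1088 (-1.49 ± 0.15) and CAVIN1 had 620.2, 683 and 727 CPM with DMSO and 396, 439 and 425 CPM with IMP1088 (-0.69 ± 0.09). The summed fibroblast markers given above, and those of smooth muscle and pericytes, which summed to between 464 and 549 CPM with DMSO and between 332 and 369 CPM with IMP1088, were lower beside these lists, and their part in them was not tested. Some of these markers are list members. Overlaps of 10% or more also touch INHBE (16.4%), MANEAL (23.5%), GOLGA1 (14.6%), SERPINB2 (19.96%), BMP4 (16.3%), BDNF (12.8%), CDKN2C (20.4%), FAS (25.7%), CFLAR (12.1%) and CCND1 (10.4%).

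**Figure D3:**
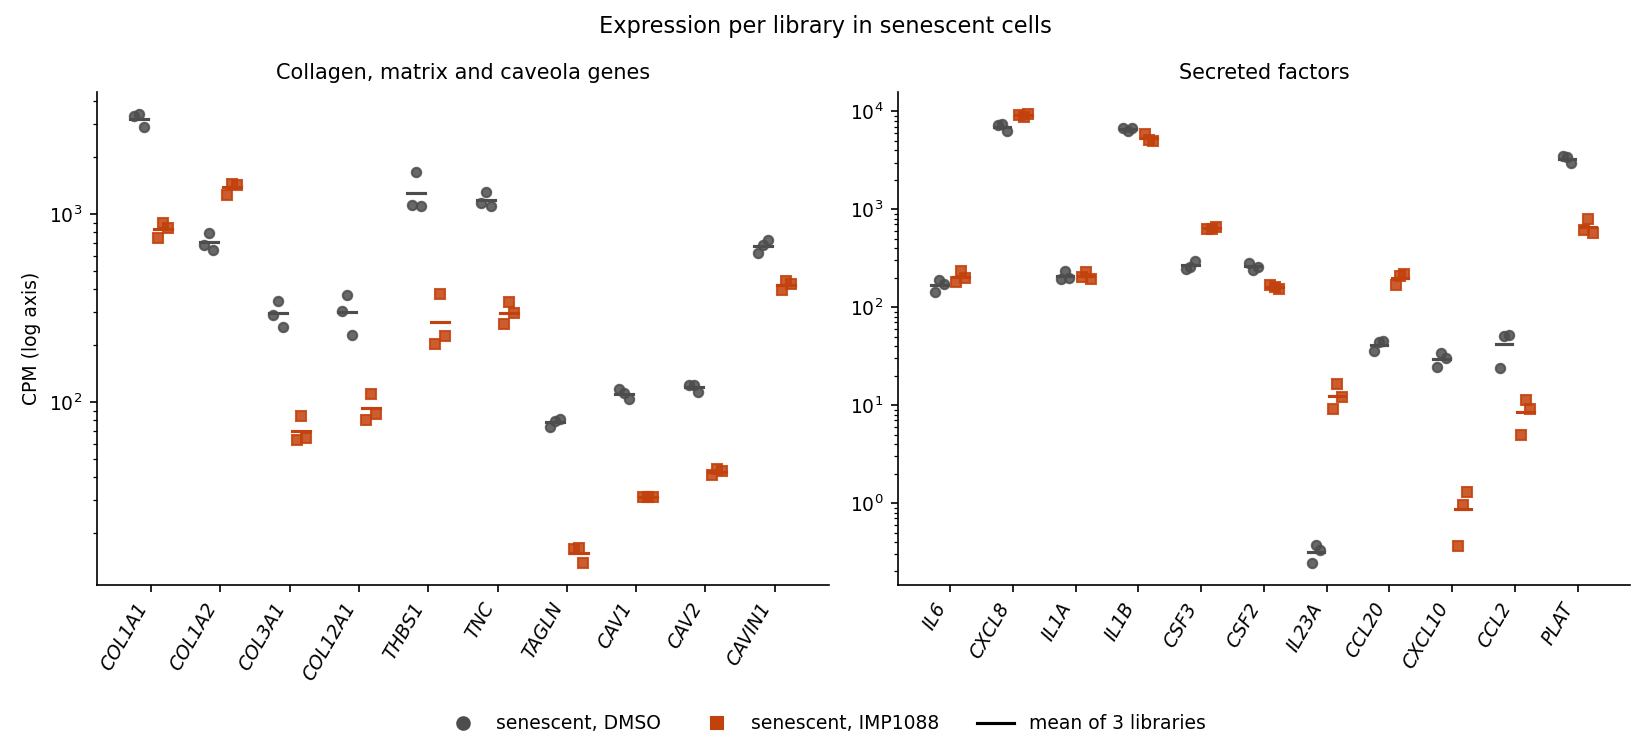
CPM on a log axis in each senescent library for collagen, matrix and caveola genes (left) and for secreted factors (right), with circles for DMSO, squares for IMP1088 and a bar at the mean of 3 libraries. COL1A2 is the gene of the left panel whose squares lie above its circles, and on the right IL6 and IL1A overlap between groups.

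The list of cell cycle inhibitors and lamins, which also holds LBR, HMGB1, HMGB2 and H2AZ1, went both ways. Of its 17 genes 6 rose and 7 fell (median -0.09), which is 35.3% and 41.2% beside 20.6% and 23.9% of all genes. CDKN1A, the inhibitor p21, had 1952, 2160.1 and 2265 CPM with DMSO and 1199.8, 1451 and 1308 CPM with IMP1088 (-0.69 ± 0.11, adjusted p = 3.1e-05), and CDKN2A, which encodes p16 and ARF, had 152, 153 and 173 CPM with DMSO and 102, 103 and 97.9 CPM with IMP1088 (-0.66 ± 0.14, adjusted p = 0.00071), with 15.3% of its exonic bases under an antisense gene. CDKN2B fell too (-1.09). CDKN2C, p18, had 0.803, 0.809 and 0.714 CPM with DMSO and 6.95, 7.66 and 5.21 CPM with IMP1088 (3.08 ± 0.25, adjusted p = 8.3e-09), and CDKN1C, p57, had 4.14, 2.93 and 2.97 CPM with DMSO and 8.31, 5.87 and 8.74 CPM with IMP1088 (1.20 ± 0.25). HMGB2, a chromatin protein lost in senescence, had 7.72, 7.59 and 6.54 CPM with DMSO and 17.8, 14.6 and 16.6 CPM with IMP1088 (1.17 ± 0.18). LMNB1, lamin B1, had 2.78, 0.872 and 2.58 CPM with DMSO and 4, 3.52 and 5.33 CPM with IMP1088 (1.03 ± 0.32, adjusted p = 0.013), a call lost without senescent DMSO replicate 2 (0.68, adjusted p = 0.083) or IMP1088 replicate 3 (0.85, adjusted p = 0.070).

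Some proliferation genes rose from low levels. Of 40 tested 13 rose and 4 fell (median 0.17), which is 32.5% and 10.0% beside 20.6% and 23.9% of all genes. CDC6, which loads the replicative helicase, had 1.79, 1.12 and 1.26 CPM with DMSO and 7.47, 6.93 and 7.62 CPM with IMP1088 (2.40 ± 0.22, adjusted p = 3.8e-08), and its partner CDT1 had 5.43, 6.72 and 8.24 CPM with DMSO and 15.3, 14.8 and 17.7 CPM with IMP1088 (1.22 ± 0.17). CCND1, cyclin D1, had 4965, 4819 and 4677 CPM with DMSO and 1651, 1682 and 1789 CPM with IMP1088 (-1.50 ± 0.09, adjusted p = 2.9e-10) and went against the list. The cell division genes KIF20A, TK1, SHCBP1 and KIF2C were under 3 CPM in all 6 libraries. KIF20A had 5 counts over the DMSO libraries and 42 over the IMP1088 libraries, a ratio of 7.74 with a counting interval from 3.07 to 25.1. MKI67, the proliferation marker Ki-67, had 8 counts over the DMSO libraries and 1 over the IMP1088 libraries, and did not pass (adjusted p = 0.18). With DESeq2 it passed (adjusted p = 0.048).

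Targets of p53 fell: 17 of 30 were lower and 0 higher (median -0.48). DDB2, a DNA repair factor, had 43.8, 42.4 and 50.3 CPM with DMSO and 18, 20.3 and 20.3 CPM with IMP1088 (-1.22 ± 0.16), and the death receptor FAS had 18.5, 22.8 and 20.3 CPM with DMSO and 9.84, 9.73 and 10.5 CPM with IMP1088 (-1.04 ± 0.13). MDM2 (-0.17) and GADD45A (-0.13) did not pass. Of 27 BCL2 family and caspase genes 7 fell and 3 rose (median -0.15). The share that fell, 25.9%, was near that of all genes, 23.9%, and 11.1% rose beside 20.6% of all genes. PMAIP1, the BH3 protein NOXA, had 135, 164 and 129.9 CPM with DMSO and 62.6, 66 and 60.5 CPM with IMP1088 (-1.18 ± 0.16, adjusted p = 5.9e-06), and the survival gene MCL1 had 1353, 1191 and 1178 CPM with DMSO and 808, 692 and 735 CPM with IMP1088 (-0.74 ± 0.10, adjusted p = 1e-05). CFLAR, which blocks caspase 8, fell by 0.66 ± 0.10. BBC3, the BH3 protein PUMA, fell by 0.63 ± 0.18 (adjusted p = 0.0068), and without senescent DMSO replicate 2 the adjusted p was 0.053. BCL2L1, which encodes BCL-xL, had 150.3, 155 and 157 CPM with DMSO and 129, 139.6 and 139 CPM with IMP1088 (-0.19 ± 0.08, adjusted p = 0.066). It did not pass, did pass with DESeq2 (adjusted p = 0.022) and when the 6 libraries were fitted alone (adjusted p = 0.041). An antisense gene covers 41.3% of its exons. BNIP3L, a mitophagy receptor, rose by 0.63 ± 0.09.

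Genes induced by ERK, the kinase downstream of RAS, fell in 15 of 28 cases and rose in 7 (median -0.38). SPRED1, an inhibitor of RAS signalling, had 109, 106 and 79.3 CPM with DMSO and 47.8, 34.8 and 34.9 CPM with IMP1088 (-1.33 ± 0.13, adjusted p = 8.7e-08), and DUSP4 (-1.22), SPRY1 (-1.13) and SPRY4 (-1.11) fell. DUSP6 fell by 0.41. The immediate early genes FOS, with 5.8, 3.8 and 3.19 CPM with DMSO and 13.3, 14.9 and 13.8 CPM with IMP1088 (1.72 ± 0.51), and FOSB, with 9.32, 8.4 and 7.2 CPM with DMSO and 26.8, 31.3 and 25.3 CPM with IMP1088 (1.74 ± 0.36), rose, as did DUSP1 (1.28) and JUNB (0.90). EGR1 (-0.01) did not pass.

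Fatty acid and sterol synthesis genes rose at particular steps. Of 34 sterol and fatty acid synthesis genes 12 rose and 2 fell (median 0.27). ELOVL5, which lengthens polyunsaturated fatty acids, had 123, 124 and 111 CPM with DMSO and 392, 366 and 404 CPM with IMP1088 (1.70 ± 0.11, adjusted p = 3.2e-10), and the desaturase FADS1 had 307, 304 and 309 CPM with DMSO and 726, 792 and 863 CPM with IMP1088 (1.37 ± 0.19). INSIG2, an ER anchor that restrains sterol synthesis, had 25.7, 28.6 and 23.5 CPM with DMSO and 63, 63.4 and 67.2 CPM with IMP1088 (1.32 ± 0.12). ACACA, acetyl-CoA carboxylase, fell by 0.75 ± 0.23 (adjusted p = 0.013), a call lost without IMP1088 replicate 2 (-0.70). Of 10 LXR targets and efflux genes 2 rose and 1 fell (median -0.061). APOE had 5.06, 3.17 and 2.8 CPM with DMSO and 18.8, 11 and 11.6 CPM with IMP1088 (1.92 ± 0.26) and the exporter ABCG1 had 11.6, 11.6 and 14.4 CPM with DMSO and 22.7, 21.2 and 19.1 CPM with IMP1088 (0.75 ± 0.15). LPCAT3 fell by 0.76 ± 0.14, and 65.98% of its exonic bases overlap EMG1.

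Of 26 targets of the antioxidant factor NRF2 7 rose and 8 fell (median -0.12), not far from the shares of all genes, 20.6% and 23.9%. HMOX1, haem oxygenase 1, had 21.6, 15.4 and 19 CPM with DMSO and 107, 81.3 and 125 CPM with IMP1088 (2.49 ± 0.32, adjusted p = 3.5e-06). NQO1, a quinone reductase, had 266, 247 and 233 CPM with DMSO and 107, 102 and 86.4 CPM with IMP1088 (-1.34 ± 0.11, adjusted p = 6.3e-09), with 19.4% of its exonic bases under a gene on the opposite strand. TXNRD1, thioredoxin reductase, fell (-0.59), and GCLM (0.11) did not pass. Of 49 complex I genes 9 rose and 0 fell (median 0.019), and the share that rose, 18.4%, was near that of all genes. NDUFA5 had 25.9, 30.8 and 22.1 CPM with DMSO and 54.7, 50.2 and 53.8 CPM with IMP1088 (1.01 ± 0.16), and the assembly factors ACAD9 and ECSIT rose by 0.53 ± 0.11 and 0.50 ± 0.13. Of 71 cytosolic ribosomal protein genes 18 rose and 0 fell (median 0.29), and the share that rose, 25.4%, was not far from that of all genes. RPL10 had 407, 395 and 462 CPM with DMSO and 737, 787 and 757 CPM with IMP1088 (0.85 ± 0.11), with 53.4% of its exonic bases under other genes, chiefly DNASE1L1. Ribosomal protein genes have many near-identical pseudogenes, so these counts depend on the assignment of reads. RPL13A rose by 0.53 ± 0.18 (adjusted p = 0.018), a call lost without senescent DMSO replicate 1 (adjusted p = 0.057) or 2 (0.068).

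**Figure D4:**
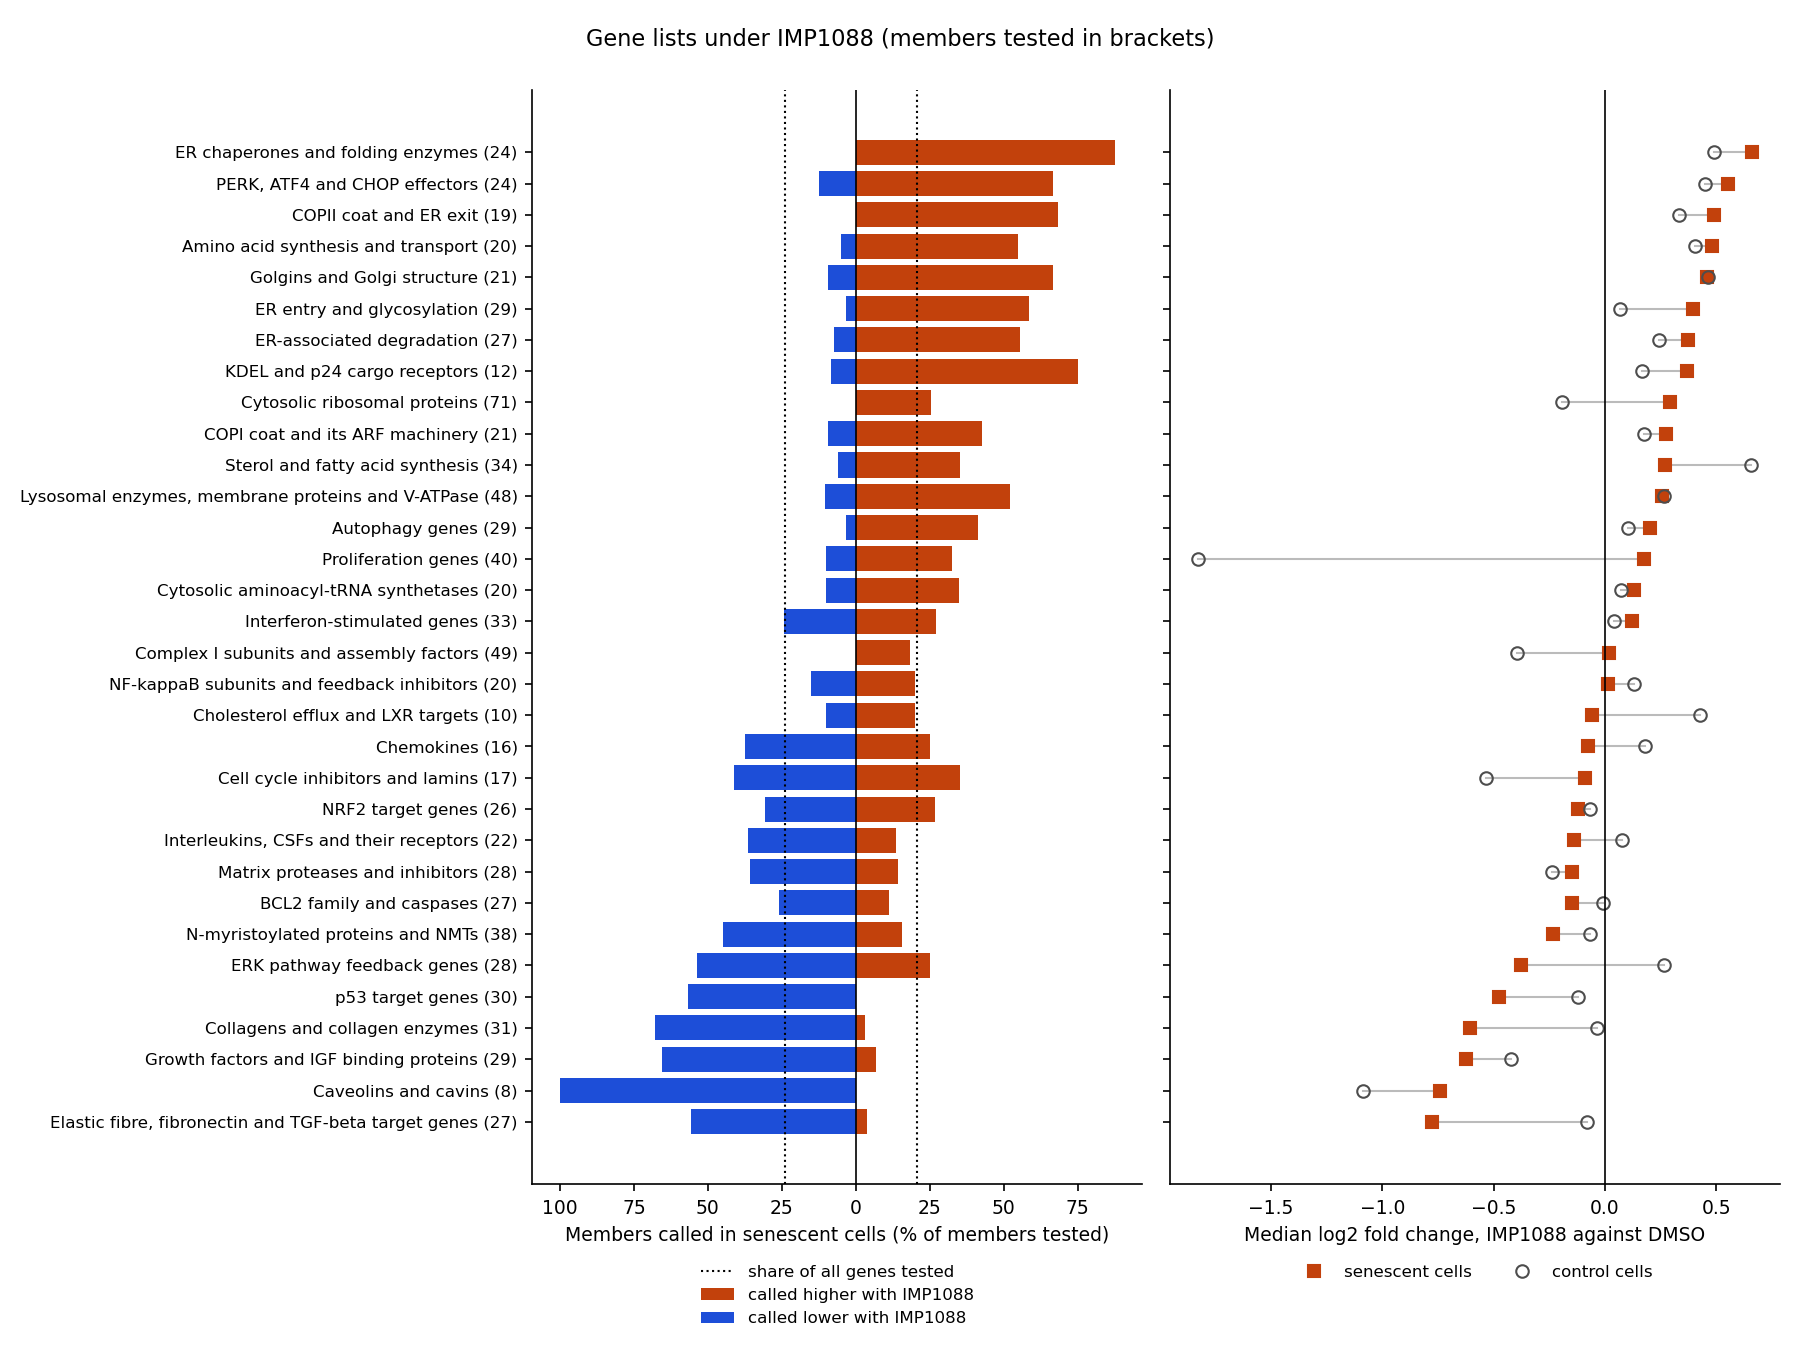
Left, share of the tested members of each of 32 lists called higher (right of 0) or lower (left of 0) with IMP1088 in senescent cells, in percent, with dotted lines at the shares over all genes tested, 20.6% and 23.9%. Right, median log2 fold change of each list for IMP1088 against DMSO in senescent cells (squares) and control cells (circles), with ER chaperones highest and elastic fibre genes lowest in senescent cells, and proliferation genes lowest in control cells.

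The same dose was also given to control cells, so the effect could be compared between states through an interaction term, which used DMSO libraries of both states. In control cells 2333 genes rose (16.3%) and 2496 fell (17.4%). The effect was higher in senescent cells for 1731 genes (12.1%) and lower for 2030 (14.2%). With upper quartile scaling the counts were 2061 and 1820, and in a fit of the 12 libraries given DMSO or IMP1088 they were 1798 and 1660, so which count was the larger turned with the setting. Without control IMP1088 replicate 1 they were 1414 and 1324. Control DMSO replicate 3 stood apart, with a correlation of log2 CPM of 0.9791 and 0.9875 with the other replicates of its group, and without it the counts were 1433 and 1782. Of the 24 chaperones and folding enzymes 7 had a higher effect in senescent cells and 0 a lower one, with medians of 0.66 in senescent and 0.49 in control cells. Of 27 ER-associated degradation genes 7 were higher and 3 lower (median difference -0.0098), and of 29 of ER entry 7 and 1 (0.32). The PERK, ATF4 and CHOP list had 4 higher and 5 lower of 24 (-0.065). Of 21 COPI genes 6 were higher and 1 lower (0.094), and of 19 COPII genes 2 and 2 (0.041). Of 12 cargo receptors 3 were higher and 1 lower (0.25), and of 21 golgin genes 1 and 3 (0.0048). HSPA5 had 780.4, 860.1 and 825 CPM in control cells with DMSO and 1872, 1716 and 2137 CPM with IMP1088, a log2 fold change of 1.22 ± 0.15 there, and the difference between states was 0.77 ± 0.20 (adjusted p = 0.0089). For P4HB the difference was 0.83 ± 0.14 (adjusted p = 0.00034), for HERPUD1 0.73 ± 0.19 (adjusted p = 0.0087), for ATF4 0.98 ± 0.19 (adjusted p = 0.001) and for SQSTM1 0.63 ± 0.13 (adjusted p = 0.0017). ARF4 rose from 355, 398 and 498 to 757, 755 and 909 CPM in control cells, a log2 fold change of 0.95 ± 0.13, and the difference was 1.46 ± 0.18 (adjusted p = 1.1e-05). DDIT3 rose by 1.78 ± 0.20 in control cells, with a difference of -0.02 ± 0.28 (adjusted p = 0.96). Caveolin CAV1 fell by 1.75 ± 0.11 in control cells, and its difference was -0.07 ± 0.16 (adjusted p = 0.78).

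Of the 31 collagen genes 8 fell and 5 rose in control cells (median -0.034), and the effect was lower in senescent cells for 14 and higher for 2. COL1A1 had 8993, 8259 and 5549 CPM in control cells with DMSO and 9606, 8219 and 8166 CPM with IMP1088, and the difference was -2.14 ± 0.25 (adjusted p = 6.7e-06). COL3A1 rose by 0.57 ± 0.15 in control cells (adjusted p = 0.0081), with a difference of -2.63 ± 0.22 (adjusted p = 9.1e-08). PLAT had a difference of -2.63 ± 0.19 (adjusted p = 1.1e-08) and TIMP3 one of -2.25 ± 0.18 (adjusted p = 2.9e-08). The control DMSO libraries were spread in COL1A1, with replicate 3 lowest.

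Proliferation genes fell in control cells. There 38 of 40 were lower and 0 higher (median -1.83), and the effect was higher in senescent cells for 35 and lower for 1. With DMSO alone, the median log2 fold change of this list in senescent against control cells was -2.73. The part of these low starting levels in the differences was not tested. CDC6 fell by 0.91 ± 0.17 in control cells, from 11.1, 10.7 and 12 to 5.92, 5.12 and 6.95 CPM, and the difference was 3.31 ± 0.28 (adjusted p = 7.6e-08). For LMNB1, from 27.7, 26.1 and 27.7 to 9.68, 10.6 and 10.7 CPM in control cells, it was 2.42 ± 0.40 (adjusted p = 0.00022). MKI67 fell by 2.58 ± 0.29 in control cells, from 32.2, 19.8 and 12.9 to 3.26, 3.21 and 4.42 CPM, and its difference did not pass (-0.16 ± 0.68, adjusted p = 0.88), with at most 0.187 CPM in any senescent library. CDKN1A did not pass in control cells (-0.13 ± 0.11, adjusted p = 0.37), and the difference was -0.56 ± 0.15 (adjusted p = 0.011), lost without control IMP1088 replicate 1 (-0.41, adjusted p = 0.056). Of 34 sterol and fatty acid genes 23 rose and 1 fell in control cells, and the effect was lower in senescent cells for 11 and higher for 2.

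**Figure D5:**
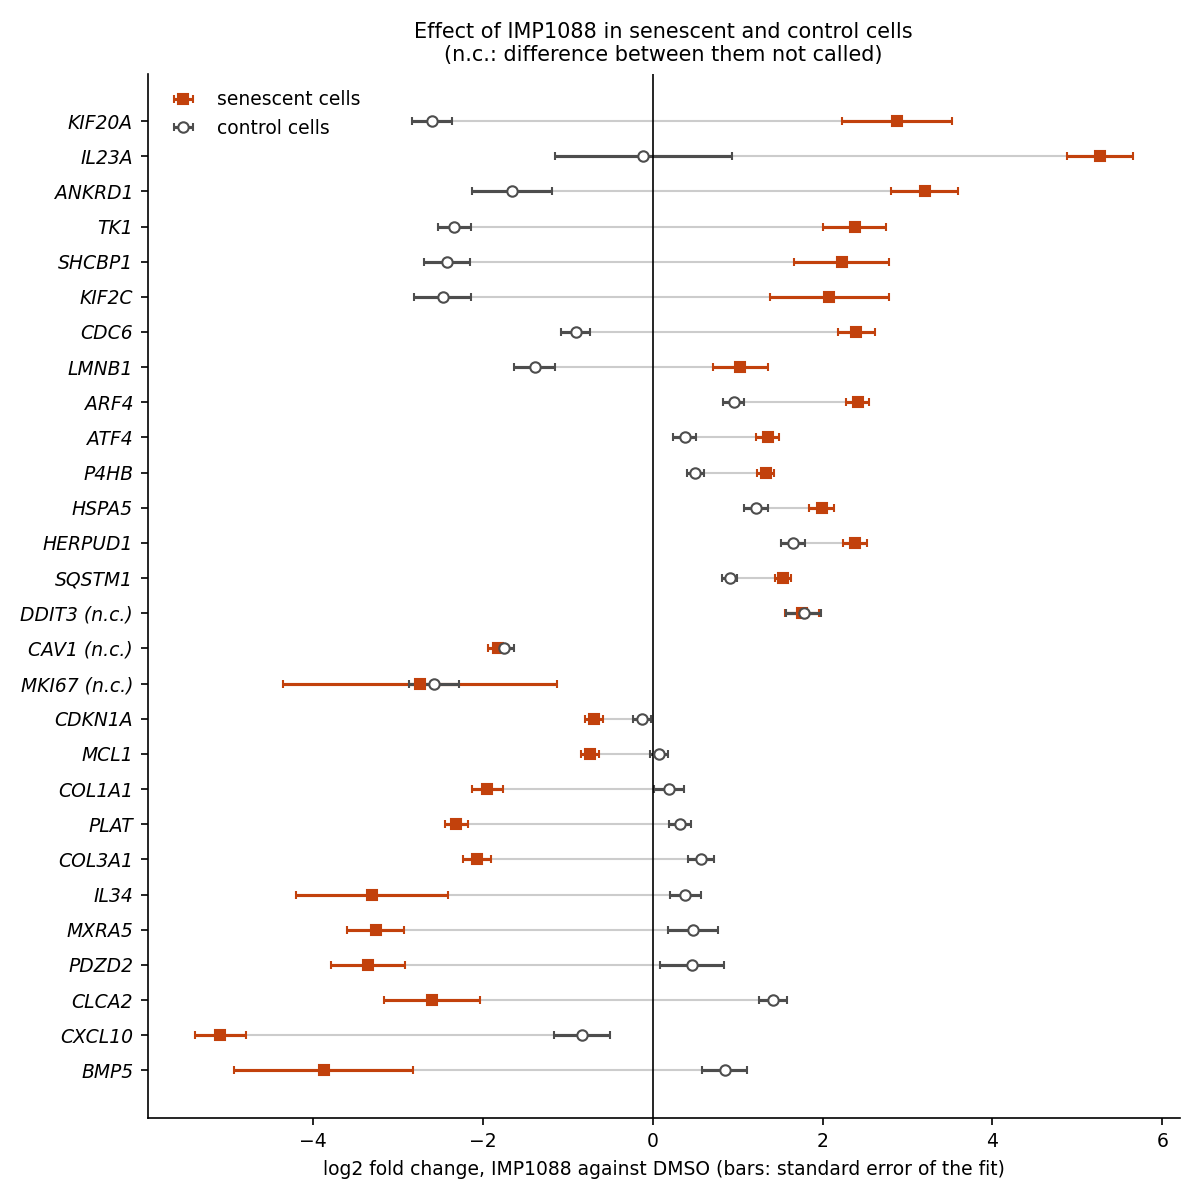
Log2 fold change for IMP1088 against DMSO in senescent cells (squares) and control cells (open circles), with bars for the standard error of the fit over 3 libraries a group, for genes named for the difference between states and 10 others described above. Genes are sorted by the difference, from KIF20A, higher in senescent cells, to BMP5, lower in senescent cells, and n.c. marks those whose difference was not called, DDIT3, CAV1 and MKI67.

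Senescent cells also received another NMT inhibitor, DDD86481, at 1.5 µM. As the doses differ and the senescent DMSO libraries are shared, its values are set beside those of IMP1088 without a comparison. The log2 fold change of HSPA5 was 1.71 ± 0.15 with DDD86481 beside 1.99 ± 0.15 with IMP1088, DDIT3 1.31 ± 0.20 beside 1.75 ± 0.20, and ARF4 2.20 ± 0.13 beside 2.41 ± 0.13. COL1A1 had -1.51 ± 0.18 beside -1.95 ± 0.18, COL1A2 1.25 ± 0.14 beside 0.97 ± 0.14 and IL23A 4.70 ± 0.40 beside 5.27 ± 0.39. The median of the chaperone list was 0.63 beside 0.66, of the collagen list -0.69 beside -0.61, and of the p53 targets -0.40 beside -0.48.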

How the data were processed

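Poly(A) RNA was sequenced in 18 libraries of IMR90 ER:RAS cells, in 6 groups of 3, which were taken from the labels. Values are raw counts per gene symbol in 1 table, deposited by the authors. The sources disagree on how the authors made these counts: the study's methods name TopHat and hg19, while the submitters' processing notes name STAR 2.7.8a, DRAGEN, DESeq2 1.32.0 and hg38. Libraries were made with a directional kit, and the study's methods give a first-strand setting for the TopHat alignment. The setting used to count reads per gene was not given in the sources used here, so overlapping genes are uncertain, and overlaps of at least 10% of a gene's exonic bases (GENCODE v44 on GRCh37) are given for genes described with their values.

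The table held 28266 rows, of which 6836 had no count. The filterByExpr function of edgeR 4.0.16 (R 4.3.3) kept 14341 genes with 99.962% of all counts. TMM scaling and 1 quasi-likelihood fit of the 18 libraries over 6 groups, with 12 residual degrees of freedom, gave each contrast, with Benjamini-Hochberg adjustment over the genes of a contrast and a threshold of 0.05. The SE is the absolute log2 fold change divided by the root of F. Where a group lay at or under 3 counts in each library, the fold is given against that floor or as a ratio of summed counts with its exact 95% interval, which covers counting error only, since no molecular identifiers are described. The script was tested on simulated data. Replicates differed by more than sampling noise (chi-square per gene of at least 5.26), so none was treated as a duplicate.

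The 32 lists, of 897 genes with 873 tested, the naming rule and the comparisons were chosen with earlier results of these data known. Genes named were the 10 largest rises and falls and the 5 largest gains and losses of CPM among called genes whose groups did not overlap, up to 3 members of each list and the largest mover against it (at least 5 CPM in a group), the 6 largest differences between states in each direction, and preset reference genes. Other list members are named to show their range and were chosen after their values were seen. Alternatives were upper quartile scaling, DESeq2 1.42.0, no filter, a replicate block, smaller fits, a 2-fold threshold and leaving out each library. Some genes are not reported here. Names follow the table, and 11104 of the tested symbols matched a RefSeq promoter window (GRCh38.p14).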

Additional observations from a re-analysis of the deposited data

Results flagged for a closer look

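The following effects of IMP1088 differed between senescent and control cells by the interaction term of edgeR's quasi-likelihood fit, each as log2, senescent minus control, with adjusted p-values over all genes tested. The effect was higher in senescent cells for KIF20A (5.47, adjusted p = 6.8e-06), IL23A (5.38, adjusted p = 0.0063), ANKRD1 (4.87, adjusted p = 1.3e-05), TK1 (4.71, adjusted p = 9.9e-08), SHCBP1 (4.64, adjusted p = 1.9e-05) and KIF2C (4.55, adjusted p = 0.00022), and among reference genes for HSPA5 (0.77), HERPUD1 (0.73) and SQSTM1 (0.63). Control cells given IMP1088 had IL23A at or under 3 counts in each library, so its fitted difference depends on the prior count, and its call was lost without control DMSO replicate 3 (4.39, adjusted p = 0.14). The senescent DMSO libraries held 5 counts of KIF20A in all, so its fitted difference depends on the prior count too. In the mitotic genes KIF20A, SHCBP1 and KIF2C and in TK1, a nucleotide salvage enzyme, control cells fell from above 10 CPM while senescent libraries stayed under 3 CPM. In senescent cells alone the call of KIF2C was lost without DMSO replicate 3 (1.60, adjusted p = 0.10) or IMP1088 replicate 2 (2.00, adjusted p = 0.051). ANKRD1, a target of YAP, had 0.432, 0.809 and 0.714 CPM with DMSO and 3.05, 8.78 and 6.45 CPM with IMP1088 in senescent cells.

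The effect was lower in senescent cells for BMP5 (-4.72, adjusted p = 0.0031), CXCL10 (-4.26, adjusted p = 3.5e-06), CLCA2 (-4.02, adjusted p = 5.4e-05), PDZD2 (-3.81, adjusted p = 0.00011), MXRA5 (-3.74, adjusted p = 7.2e-06) and IL34 (-3.69, adjusted p = 0.0056), and for CDKN1A (-0.56). BMP5, CLCA2 and IL34 had 18, 24 and 12 counts over the senescent DMSO libraries and 1, 4 and 1 over the IMP1088 libraries, so their fitted values depend on the prior count.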

How the results depend on the processing

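For IMP1088 in senescent cells the 2951 rises and 3423 falls became 280 and 242 when a change beyond 2-fold was required, by construction of that test. Leaving out 1 library gave from 2568 to 2652 rises and from 2886 to 3005 falls, and upper quartile scaling, no filter, DESeq2 and the fit of 6 libraries stayed within 1.5 times of the main counts. The effect in senescent minus control cells was higher for 1331 to 2520 genes and lower for 1324 to 2722 when 1 library was left out, against 1731 and 2030, with the lowest of the latter without control IMP1088 replicate 1 and the highest counts without control DMSO replicate 1.

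Replicate numbers were not shown to pair the senescent libraries: the deviations of same-numbered DMSO and IMP1088 libraries from their group means correlated at 0.0962, 0.0695 and 0.0069. In control cells they correlated at 0.394, 0.123 and 0.231, but DMSO replicate 3 correlated at 0.13 with IMP1088 replicate 2. Pairing by number was therefore not shown for replicate 2 there. With a replicate block the counts were 3022 and 3488 in senescent cells, and 1833 and 2141 for the difference between states, and the block changed no call among the 161 named genes and the 18 differences.

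No called value of a named gene turned its direction. Of the 161 named genes 149 were called, and 88 of these calls were lost when a change beyond 2-fold was required. Of 32 lists, 17 kept a median above 0 and 12 a median below 0 in every alternative, and the medians of NF-kappaB, LXR and NRF2 genes took both signs. With upper quartile scaling, the all-gene median moved by 0.00027 in senescent cells and by 0.052 for the difference between states. SRP68 was not called without the filter on low counts (adjusted p = 0.11). Genes under about 1 CPM rest on few counts, and their fold changes are the least certain.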
